A study of Mus musculus with 8 samples.

Results

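A20 and other genes grouped with it as TNF-α feedback inhibitors were followed as 9 genes in Hepa1-6 cells, a mouse hepatoma line. The group name does not mean that all were induced here, since 4 of the 9 did not pass with TNF-α alone. The 9 were taken by name: Tnfaip3, which encodes A20; the A20-binding proteins Tnip1, Tnip2 and Tnip3; the deubiquitinase Cyld; the ribonuclease Zc3h12a, or regnase-1; and the TNF-induced genes Tnfaip2, Tnfaip8 and Ier3. All 9 were found among the 54446 genes of the count table, and all 9 were among the 15613 genes with enough counts to be tested. Tnfaip3, Tnip1, Tnip3 and Tnfaip2 rose with TNF-α whether or not TMAO was present, Ier3 rose in 2 of the 3 pairwise comparisons with TNF-α, and no member passed a test for an effect of TMAO when all 8 libraries were fitted.

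When TNF-α binds its receptor, ubiquitin chains are built on the receptor complex, the IKK kinases are recruited to them, and the inhibitor IκB is destroyed so that NF-κB enters the nucleus. NF-κB then transcribes genes whose products close the loop: A20 edits and blocks the ubiquitin chains, the A20-binding proteins bring it to them, and newly made IκB takes NF-κB back out of the nucleus. CYLD removes ubiquitin chains and is present before the signal, while regnase-1 cuts the messenger RNAs of inflammatory genes. In liver cells A20 is known to protect against death and inflammation caused by TNF-α.

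The series holds 4 groups of 2 libraries each, all from Hepa1-6 cells that the labels give as C57BL/6. Control cells received nothing, and the others were exposed for 24 h to 50 µM TMAO (trimethylamine N-oxide, a metabolite that the liver makes from a product of gut bacteria), to 50 ng/ml TNF-α, or to both. For the combined group a treatment label names TMAO for both agents, whereas the treatment protocol names TMAO and TNF-α. Libraries of each group are numbered 14 and 16 and nothing in the labels calls them separate cultures, so p-values measure only the spread between libraries, which may be technical.

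Depth was 24736746 to 30488605 counts per library, and 3 counts correspond to 0.0984 to 0.121 CPM, where CPM scales the counts of a gene to the depth of its library. TNF-α library 16 stood apart: its median correlation with the other libraries was 0.967, against 0.981 to 0.983 for the others, and its 75 ribosomal protein genes averaged 9.13 on the log2 CPM scale. The same mean was 8.59 in control library 14 and 8.29 to 8.36 in the other 6. Of 10 hepatocyte and hepatoma markers, 7 were above 1 CPM, with Alb, Afp, Apob, Hnf4a and Foxa2 among them, while Apoa1, Ttr and Serpina1a were under 1 CPM in every library. The summed level of those markers was 3297 to 3349 CPM in control, 3125 to 3179 in TMAO, 1452 to 1532 in TNF-α and 1409 to 1449 in the combined group, and 4 of the 7 tested (Alb, Afp, Hnf4a and Foxa2) fell with TNF-α averaged over both backgrounds (edgeR). Of 7 macrophage markers, Ptprc, Adgre1, Lyz2, Clec4f and Itgam were under 1 CPM in every library, and Csf1r, 1 of the 2 tested, fell with TNF-α. Cd68, the other, moved the opposite way without passing, and the median of the 2 was -0.37 averaged over both backgrounds. That list summed to at most 17.8 CPM in control, 14.9 to 16.3 in TMAO, 14.8 to 17.2 in TNF-α and 12.5 to 14.1 in the combined group. All 5 endothelial markers were under 1 CPM everywhere. Of 5 stellate cell and fibroblast markers Pdgfrb and Lrat were under 1 CPM, so nearly all of the list's sum came from Col1a1, Des and Dcn. The list summed to 1705 to 1807 CPM in control, 1649 to 1665 in TMAO, 1325 to 1464 in TNF-α and 1278 to 1312 in the combined group. None of its 3 tested genes passed with TNF-α averaged over both backgrounds (edgeR). The part of these marker changes in the results below was not tested, and in bulk RNA fewer cells of a type and less RNA per cell cannot be told apart.

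The promoters of the members that rose are shown because all 5 hold a match to the NF-κB consensus. Sequences are RefSeq windows of GRCm38.p6, which reach from 250 bases before to 50 bases after an annotated start; 8 of the 9 members had a window and Tnfaip8 had none. Both strands were searched. Capitals mark the match, and each sequence reads 5′ to 3′ on the strand of its gene.
Tnfaip3: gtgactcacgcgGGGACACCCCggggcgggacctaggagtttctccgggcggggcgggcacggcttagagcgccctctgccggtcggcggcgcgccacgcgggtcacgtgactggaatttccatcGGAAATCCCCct
Tnip1: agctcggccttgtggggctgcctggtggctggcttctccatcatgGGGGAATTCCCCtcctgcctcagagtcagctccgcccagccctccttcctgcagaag
Tnip3: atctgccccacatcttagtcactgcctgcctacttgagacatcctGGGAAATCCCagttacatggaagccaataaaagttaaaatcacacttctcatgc
Tnfaip2: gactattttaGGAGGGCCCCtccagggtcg
Ier3: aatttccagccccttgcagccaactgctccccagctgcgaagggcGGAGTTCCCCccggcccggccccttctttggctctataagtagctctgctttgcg
Cyld: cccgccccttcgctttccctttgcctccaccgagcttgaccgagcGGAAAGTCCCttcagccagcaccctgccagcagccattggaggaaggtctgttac

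The Tnfaip3 stretch lies at chr10:19015411-19015547 on the minus strand and holds 2 matches, at -125 to -116 and -12 to -3 from the start; its second annotated start has a window with no match. In Tnip1, at chr11:54962942-54963043 on the minus strand, overlapping matches fill -58 to -47. The Tnip3 match, at -54 to -45, lies within chr6:65590299-65590397 on the plus strand. In Tnfaip2, at chr12:111442627-111442656 on the plus strand, the match is at -24 to -15 and falls in an annotated exon. The gene and transcript of that exon were not recorded. The Ier3 match is at -92 to -83, within chr17:35821576-35821675 on the plus strand. Cyld, which passed no comparison with all 8 libraries, also holds one, at -155 to -146, within chr8:88696828-88696927 on the plus strand; Zc3h12a and Tnip2 hold none in their windows.

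A match of this kind is common. It occurs in 8.46% of all 32851 windows and in 12.1% of the 10631 tested genes with a window, against 68 (25.7%) of the 265 that rose and 27 of the 193 that fell with TNF-α alone. These shares describe letters in a window of fixed length and no binding was measured.

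**Figure D1:**
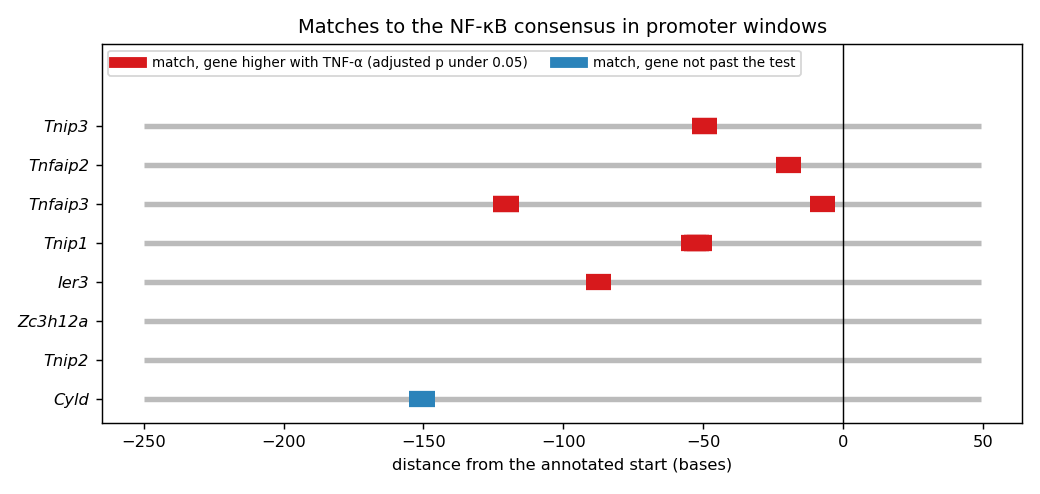
Position of matches to the NF-κB consensus, in bases from the annotated start (horizontal axis), for the 8 members with a promoter window; grey bars are the windows and coloured blocks the matches, with the window of Tnfaip3 that holds matches shown. The 5 members that rose with TNF-α each hold a match, as does Cyld, and Zc3h12a and Tnip2 show an empty bar.

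The first question was what TNF-α alone did to these genes. With TNF-α against control 5 of 9 members rose and none fell, where 2.38% of all tested genes rose and 1.67% fell (edgeR's quasi-likelihood test, Benjamini-Hochberg adjusted p under 0.05 over all tested genes). The median log2 fold change of the members was 1.06, and that of all genes 0.02. Across all 8 libraries, 6 members were higher in every library with TNF-α than in every library without it, and none was lower throughout; 9.81% of all genes were higher and 10.2% lower in this way. Levels below are CPM, comparable between libraries but not between genes.

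Tnfaip3 encodes A20, which removes some ubiquitin chains and adds others to end NF-κB signalling. In control libraries 14 and 16 it was at 69.0 and 71.2 CPM, and with TMAO at 68.0 and 66.9 CPM. With TNF-α alone it was at 239.5 and 194 CPM, and with both agents at 239 and 235 CPM. The 4 libraries without TNF-α lay close together, and even the lowest library with TNF-α, TNF-α 16, lay far above them. The rise with TNF-α alone was 3.10-fold, a log2 fold change of 1.63 ± 0.12 (SE, n = 2 libraries a group; adjusted p = 0.00142, edgeR's quasi-likelihood test). With both agents against TMAO alone, a comparison of 4 other libraries, it was 1.81 ± 0.12 (adjusted p = 0.00103, edgeR).

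The deposited TPM table, which sets values per transcript length, gave another picture of Tnfaip3 in 1 library. Its TPM was 32.3 to 34.4 in the 4 libraries without TNF-α and 105 to 109 in 3 libraries with it, but 20.8 in TNF-α 16, below every control. The ratio of TPM to CPM in that library was 3.59 times under that of the other libraries after the ratio typical of each library was removed. Of 11362 genes compared in this way, 20 (0.176%) were as low in TNF-α 16, and 4 to 7 were in each other library. On log2(TPM + 1), Tnfaip3 with TNF-α against control was at 0.48 (limma, adjusted p = 0.77), and with both agents against control at 1.64, neither past the test. With both agents against TMAO it was at 1.69 on that scale and also did not pass (limma, adjusted p = 0.38). The call of Tnfaip3 rests on the count table. What made the tables differ was not tested.

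**Figure D2:**
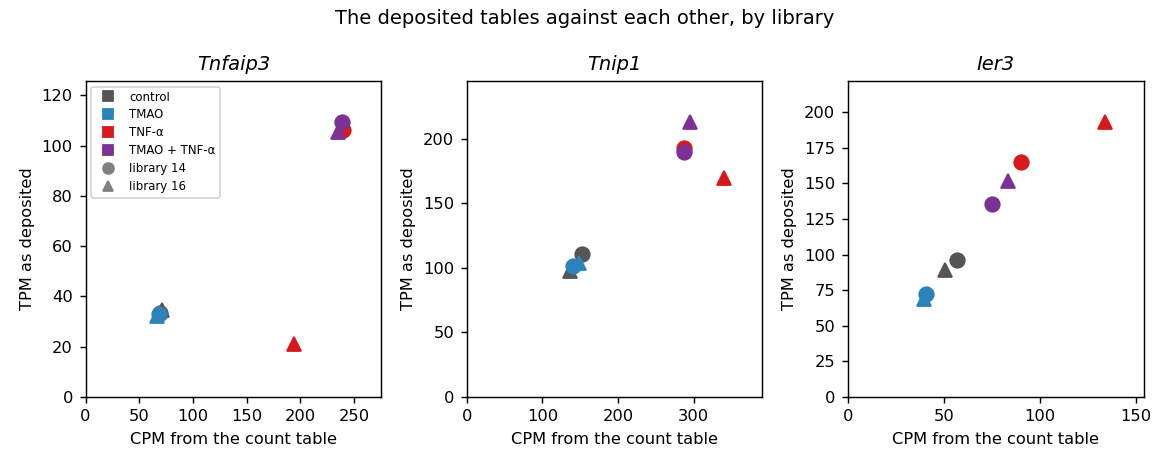
CPM from the count table (horizontal axis) against deposited TPM (vertical axis) for Tnfaip3, Tnip1 and Ier3, both axes linear, with each point 1 library coloured by group. For Tnfaip3 the TNF-α 16 library lies at 194 CPM and 20.8 TPM, away from the other libraries with TNF-α at 105 to 109 TPM.

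Tnip1 encodes ABIN1, which binds A20 and ubiquitin chains and holds A20 at its targets. Its control libraries were at 152 and 137 CPM and its TMAO libraries at 141 and 149 CPM. They were at 288 and 340.2 CPM with TNF-α and at 288 and 296 CPM with both agents. The 4 libraries with TNF-α did not overlap the 4 without it, and TNF-α 16 was the highest of all. Tnip1 rose 2.18-fold with TNF-α (log2 fold change 1.12 ± 0.12 SE, adjusted p = 0.00475, edgeR) and by 1.01 ± 0.12 with both agents against TMAO (adjusted p = 0.00703, edgeR).

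Tnip3 encodes ABIN3, a further A20-binding protein, and was nearly silent before treatment. Control libraries were at 0.845 and 1.69 CPM and TMAO libraries at 1.12 and 1.46 CPM, from 25 to 49 counts a library. With TNF-α it was at 12.9 and 13.6 CPM, and with both agents at 14.3 and 11.8 CPM, from 328 to 398 counts. This was the steepest rise among the members, 10.4-fold with TNF-α (log2 fold change 3.38 ± 0.30 SE, adjusted p = 0.00237, edgeR), and also the least precise. Against TMAO the combined group was higher by 3.33 ± 0.30 (adjusted p = 0.00227, edgeR).

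Tnip2 encodes ABIN2, the third binding protein, which also holds the kinase TPL2 stable. It did not follow its relatives past the test. It was at 8.75 and 7.96 CPM in control, 9.14 and 9.25 with TMAO, 9.56 and 11.7 with TNF-α, and 9.52 and 9.19 with both agents. Both TNF-α libraries were above the other 6, although TNF-α 14 was only just above the combined pair. Its log2 fold change with TNF-α was 0.34, with a 95% interval of 0.01 to 0.67 (adjusted p = 0.315, edgeR), which does not show that it stayed the same.

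Cyld encodes a deubiquitinase that trims the chains on the receptor complex. It was at 76.8 and 85.2 CPM in control, 86.2 and 84.9 with TMAO, 96.9 and 71.7 with TNF-α, and 104 and 102 with both. The TNF-α pair spanned all the control and TMAO libraries, and TNF-α 16 was the lowest of all 8. The log2 fold change with TNF-α was 0.06 with an interval of -0.30 to 0.41 (adjusted p = 0.866, edgeR). Leaving out TNF-α 16 gave 0.26, leaving out TNF-α 14 gave -0.19, and log2(TPM + 1) gave -0.34, so its direction differed between settings. With both agents Cyld was at 0.34 against control (interval -0.01 to 0.70) and at 0.27 against TMAO (interval -0.09 to 0.62). Neither passed with all 8 libraries in edgeR, and both were above 0 in every setting tried.

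Zc3h12a encodes regnase-1, the ribonuclease that degrades inflammatory transcripts. Control libraries held 10.6 and 9.48 CPM and TMAO libraries 10.1 and 8.32 CPM. TNF-α libraries held 13.0 and 13.4 CPM and those with both agents 11.2 and 11.8 CPM. All 4 libraries with TNF-α were above the 4 without it, by a narrow margin, and no comparison passed with all 8 libraries. The log2 fold change was 0.39 with TNF-α alone (interval 0.06 to 0.72, adjusted p = 0.235, edgeR) and 0.36 averaged over both backgrounds (adjusted p = 0.0747, edgeR). It passed on average without TNF-α 14 (adjusted p = 0.00466, edgeR, with 7444 of 16317 genes called) and without TNF-α 16 (0.0148, with 4102 of 16377).

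Tnfaip2 encodes M-Sec, a relative of an exocyst subunit that takes part in the making of membrane tubes between cells, and it has long served as a TNF-induced marker. It was at 3.31 and 3.14 CPM in control and 3.43 and 3.61 CPM with TMAO. It reached 19.0 and 19.8 CPM with TNF-α and 17.8 and 18.5 CPM with both agents. The groups with and without TNF-α were far apart and the libraries within each group close, and its interval was the narrowest among the members. The rise was 6.00-fold with TNF-α (log2 fold change 2.58 ± 0.12 SE, adjusted p = 0.000362, edgeR) and the log2 fold change was 2.36 ± 0.12 with both agents against TMAO (adjusted p = 0.000454, edgeR). The antisense gene Gm40578 overlaps Tnfaip2, and no source used here states the strand setting of the counting. Gm40578 held 0 to 4 counts a library.

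Ier3 encodes a short-lived stress protein of the immediate early response that affects cell survival. It was at 57.0 and 50.6 CPM in control, and lower with TMAO, at 40.7 and 39.8 CPM. With TNF-α it was at 90.1 and 134 CPM and with both agents at 75.1 and 83.1 CPM. Every library with TNF-α was above every library without it, but the TNF-α pair itself was wide, with TNF-α 16 the higher. Ier3 rose 2.08-fold with TNF-α (log2 fold change 1.06 ± 0.19 SE, adjusted p = 0.0288, edgeR) and by 0.97 ± 0.19 with both agents against TMAO (adjusted p = 0.0415). With both agents against control its log2 fold change was 0.56 and did not pass (adjusted p = 0.214, edgeR).

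Tnfaip8, which encodes a lipid-binding protein named for its induction by TNF-α in other cells, did not rise. It was at 71.4 and 66.4 CPM in control, 66.5 and 65.2 with TMAO, 55.1 and 68.8 with TNF-α, and 57.2 and 54.0 with both. TNF-α 14 and the libraries with both agents lay below all 4 without TNF-α, while TNF-α 16 lay among them. The log2 fold change with TNF-α was -0.16, with an interval of -0.46 to 0.15 (adjusted p = 0.619, edgeR). With both agents against control Tnfaip8 was at -0.31, with an interval of -0.61 to -0.01, and did not pass (adjusted p = 0.350, edgeR). Fitted on only the groups compared it passed as lower, at -0.31 (adjusted p = 0.0141, edgeR, with 2373 genes called). For both agents against TMAO the same kind of fit gave -0.23 (adjusted p = 0.000151, edgeR, with 4775 genes called). The antisense gene C030005K06Rik overlaps it and held 2 to 9 counts a library.

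**Figure D3:**
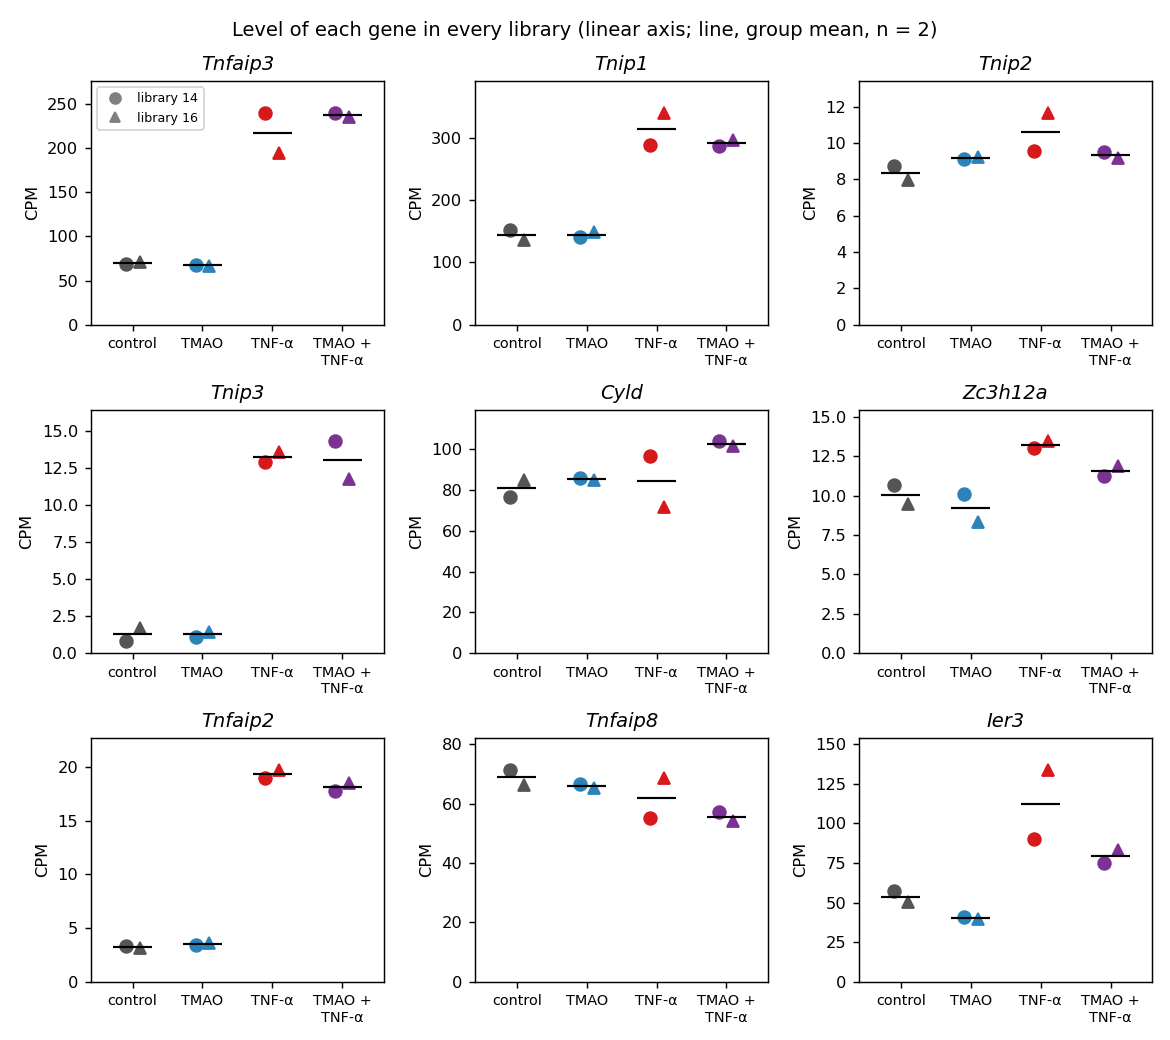
CPM (vertical axes, linear, from 0) of the 9 members in each library, with circles for library 14, triangles for library 16 and a line at the mean of the 2 libraries. Tnfaip3, Tnip1, Tnip3, Tnfaip2, Zc3h12a and Ier3 are higher in all 4 libraries with TNF-α than in the 4 without it. The TNF-α pair of Tnfaip3, Tnip1, Tnip2, Cyld, Tnfaip8 and Ier3 is wider apart than other pairs of those genes. For Tnfaip2 it is wider only by little.

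The calls with TNF-α alone were uneven in how far they rested on single libraries. Fitted on the control and TNF-α libraries alone, 0 members passed (edgeR adjusted p from 0.072 for Tnfaip2 to 0.258 for Ier3 among the 5), and 1 gene of all passed. Without control 14 or control 16, 3 members passed, since Tnip1 (adjusted p = 0.058 and 0.079, edgeR) and Ier3 (0.169 and 0.246) did not. Ier3 also fell short without either TMAO library or either combined library. Without TNF-α 14 or TNF-α 16 the widest pair leaves the fit, and 7971 and 2113 genes passed in place of 633, so calls there give no check.

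The second question was the effect of TNF-α over both backgrounds, taken as the average of its effect without and with TMAO. This comparison uses all 8 libraries. Here the same 5 members rose and none fell, against 5.35% of all genes higher and 3.86% lower. The log2 fold changes were 3.36 ± 0.21 for Tnip3, 2.47 ± 0.09 for Tnfaip2, 1.72 ± 0.09 for Tnfaip3, 1.07 ± 0.09 for Tnip1 and 1.02 ± 0.13 for Ier3 (SE; edgeR adjusted p from 3.46e-05 to 0.00437). On log2(TPM + 1) Tnfaip3, alone of the 5, did not pass, at 1.08 (limma, adjusted p = 0.313). These 5 passed in each of the 6 fits that left out 1 library outside the TNF-α group, in which 647 to 716 genes were called in place of 1437.

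The third question was whether TMAO changed the members or their response. With all 8 libraries, TMAO against control gave no call: 0 of 9 members passed the test, and neither did any other gene, 0% of those tested (edgeR; 184 genes had an unadjusted p under 0.05, none of them a member, and DESeq2 called 4 genes). Ier3 had the lowest value, a log2 fold change of -0.42 (interval -0.86 to 0.03), and both TMAO libraries were below both controls, as they were for Tnfaip3 and for 15.9% of all genes; for Tnip2 and Tnfaip2 both were above, as for 17.2%. The 95% intervals of the other members lay between -0.76 and 0.82, the widest being that of Tnip3. Changes of that size thus remain within the error. The fit shares its error over the 4 groups, and the TNF-α pair, outside this comparison, was the widest. Differences between the 2 libraries of a group had a log2 SD over genes of 0.81 there. In the other groups it was 0.35 to 0.41.

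With both agents against TNF-α alone 0 members passed in the same fit, again beside 0% of all genes (edgeR adjusted p 0.569 to 0.969; 549 genes had an unadjusted p under 0.05, Ier3 among them, and DESeq2 called 0). Both combined libraries were above both TNF-α libraries for Cyld alone and below for Tnip2, Zc3h12a, Tnfaip2 and Ier3, where 17.1% and 17.3% of all genes were so. Ier3 differed by -0.50 (interval -0.94 to -0.06) and Cyld by 0.29 (interval -0.07 to 0.64), and both rest on the TNF-α pair: without TNF-α 16 the Ier3 difference was -0.19, and without TNF-α 14 it was -0.74. For Cyld these values were 0.08 and 0.54. Tnfaip3 differed by 0.13 with all 8 libraries, by -0.02 without TNF-α 16 and by 0.31 without TNF-α 14. Over the settings tried, TPM scales included, the Tnfaip3 difference reached 1.19.

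The response to TNF-α did not differ detectably with TMAO present. The interaction passed for 0 of 9 members and 0% of all genes (edgeR adjusted p 0.953 to 0.986 for the members; 184 genes had an unadjusted p under 0.05, and DESeq2 called 0). Intervals of the interaction reached from 0.39 (Tnfaip2) to 0.99 (Tnip3) on the log2 scale to either side. Differences smaller than the interval of a gene could not be seen. Over the settings tried, TPM scales included, the Tnfaip3 interaction reached 1.24.

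With both agents against control 4 of 9 members rose, Tnip3 by 3.36, Tnfaip2 by 2.49, Tnfaip3 by 1.76 and Tnip1 by 1.02 on the log2 scale, and none fell, against 2.01% of all genes higher and 1.48% lower (edgeR adjusted p 0.00038 to 0.00694). With both against TMAO the 5 members named above rose and none fell, against 2.16% higher and 1.49% lower. Those comparisons share libraries with the ones before, in the first the controls and in both the combined group, and are not independent of them. Tnip1 did not pass with both agents against control when either library of those groups was left out (edgeR adjusted p 0.077 to 0.097). With both against TMAO, Tnip1 did not pass without either library of those groups (0.078 to 0.111, edgeR), nor Ier3 without those or either control (0.092 to 0.292), nor Tnip3 without TMAO 14 (0.052).

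**Figure D4:**
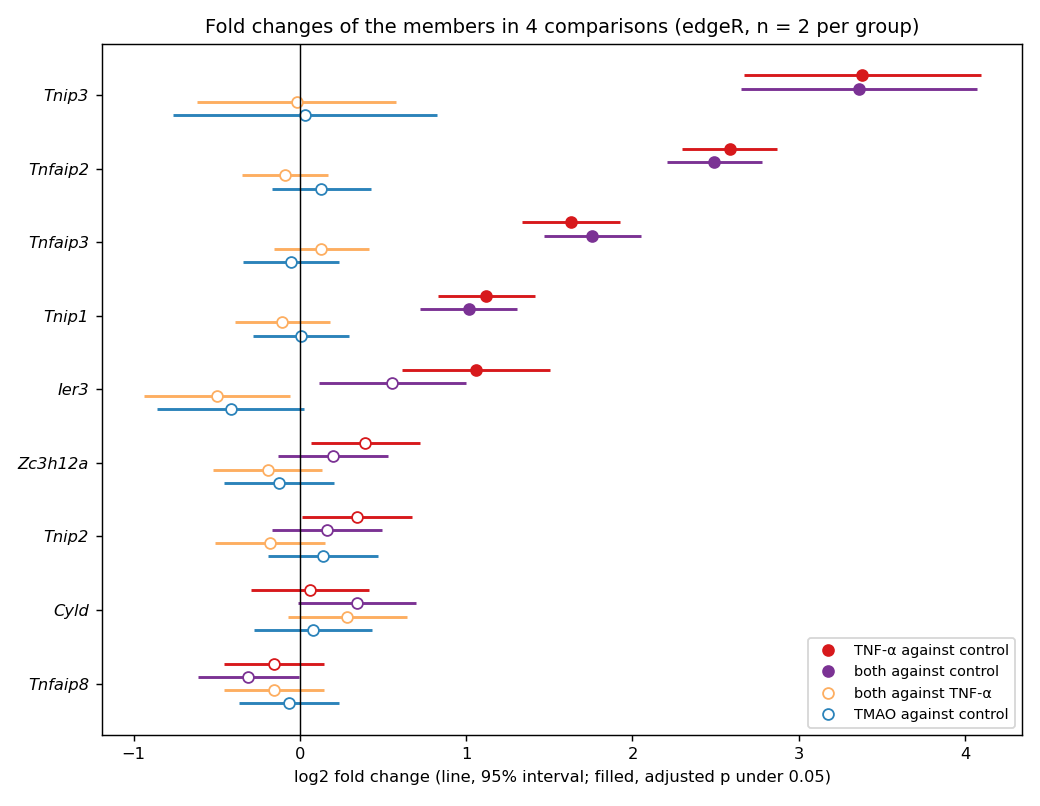
Log2 fold change (horizontal axis) of the 9 members in 4 comparisons, with lines for the 95% interval and filled points for adjusted p under 0.05 in edgeR. The red and purple points of Tnip3, Tnfaip2, Tnfaip3 and Tnip1 are filled and far from 0, and every point for TMAO against control and for both agents against TNF-α is open.

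On the TPM scale, which allows levels of different genes to be set side by side, Tnip1 and Ier3 were the most abundant members in control cells. Tnip1 averaged 104 TPM (97.1 and 111) and Ier3 92.8 TPM (89.3 and 96.3), a difference within the spread of the pairs. Tnfaip8 followed at 53.8, Tnfaip3 at 33.8 and Cyld at 28.7 TPM, whose pair (25.2 and 32.2) lay just under that of Tnfaip3 (33.2 and 34.4). Tnip2 at 8.43 and Zc3h12a at 7.80 TPM were close, and Tnfaip2 at 2.23 and Tnip3 at 0.779 TPM were lowest. With TMAO the order was the same, from Tnip1 at 103 TPM to Tnip3 at 0.853, with Tnfaip8 (53.1 and 73.5) overlapping Ier3 (69.1 and 72.5). With TNF-α alone Tnip1 and Ier3 averaged 181 and 179 TPM and overlapped, and Tnfaip3 averaged 63.5 TPM from its discordant pair of 106 and 20.8. Below them came Tnfaip8 at 49.1 and Cyld at 24.1 TPM, then Tnfaip2 at 12.4, Zc3h12a and Tnip3 at 10.1 each and Tnip2 at 9.36 TPM. With both agents Tnfaip3 had passed Tnfaip8, at 107 against 45.9 TPM, and Tnfaip2 at 14.5 and Tnip3 at 12.7 TPM had passed Tnip2 at 9.51 and Zc3h12a at 9.22 TPM, whose pairs overlapped. Tnip1 was still first at 201 TPM and Ier3 the next at 144 TPM.

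The rest of the pathway was read from 8 lists that hold 87 genes, 77 of them tested. Averaged over both backgrounds 20 of the 77 rose with TNF-α and none fell, beside 5.35% of all genes higher and 3.86% lower. Of 7 partners of A20 and enzymes of its ubiquitin chains, none passed (edgeR; median log2 fold change 0.00, as for all genes); the smallest p were those of Rnf11, at 0.15, and Itch, at -0.21, both of which work with A20. Of 6 genes that make or remove linear ubiquitin none passed either, with Spata2, which joins CYLD to the receptor complex, at 0.17 and Rnf31, the ligase subunit HOIP, at 0.09.

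Higher up, 4 of 13 genes of the receptor complex rose. Traf1, an adaptor that NF-κB itself induces, went from 19.5 ± 0.0645 CPM in control to 132 ± 34.8 CPM with TNF-α (SD, n = 2), a log2 fold change of 2.72 ± 0.13. Birc3 and Birc2, the ubiquitin ligases cIAP2 and cIAP1, rose by 1.03 and 0.54, and Tnfrsf1b, the second TNF receptor, by 0.58. Tnfrsf1a, the main receptor, was at -0.26 and did not pass (edgeR adjusted p = 0.139). Of 11 kinases and adaptors of the IKK and TAK1 complexes 3 rose: Ikbke by 1.47, Tank by 0.63 and Ikbkb by 0.47. Median log2 fold changes were 0.19 and -0.07 in these lists.

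The IκB and NF-κB genes moved most broadly: 8 of 11 rose, with a median of 0.63. Nfkbia, the inhibitor IκBα that NF-κB resynthesises, rose by 1.66 ± 0.10, Relb by 1.43 ± 0.11, Nfkbie by 1.17 ± 0.08 and Nfkbid by 1.11 ± 0.14 (SE, all on the log2 scale; edgeR adjusted p 0.000247 to 0.00342). Beside them Tnip1 had 1.07, Tnfaip3 1.72, Tnfaip2 2.47 and Tnip3 3.36 in the same comparison; differences between genes were not tested.

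Among genes beside regnase-1 in mRNA decay 1 of 10 tested rose, Zfp36, or tristetraprolin, by 0.33 (edgeR adjusted p = 0.0443), a share near that of all genes for a list of this size. Of 14 messages that regnase-1 is known to cut, 6 had enough counts to test and 3 rose, the chemokines Cxcl2 by 0.88, Cxcl3 by 0.83 and Cxcl1 by 0.61; Il6 stayed out of the test, with 32 counts in all 8 libraries. Of 16 relatives of the TNF-induced members, 15 were tested and 1 rose, Exoc3l4, which shares a family with Tnfaip2 and neighbours it in the RefSeq gene table, by 1.62 ± 0.30 (edgeR adjusted p = 0.017). It was at 0.613 CPM in control and 1.83 CPM with TNF-α. Tnfaip8l1 and Tnfaip8l2, relatives of Tnfaip8, were at 0.29 and 0.10 and did not pass. For these relatives, too, the share that rose was near that of all genes. Exoc3l4, Zfp36, Ikbkb, Rela, Nfkbib and the marker Foxa2 fell short of the threshold when any 1 of the 6 libraries outside the TNF-α group was left out (edgeR adjusted p up to 0.213). Tank did so in 5 of those 6 fits, Tnfrsf1b in 4, and Birc2 and the marker Hnf4a in 3 each.

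**Figure D5:**
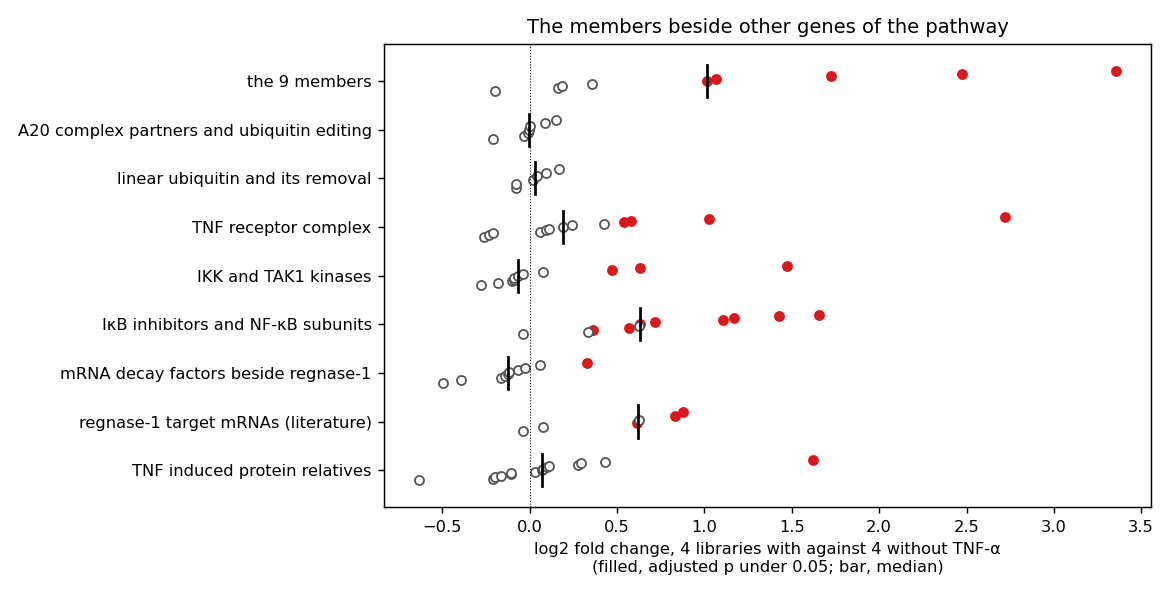
Log2 fold change with TNF-α averaged over both backgrounds (horizontal axis) for the 9 members and for each tested gene of 8 pathway lists, with filled points for adjusted p under 0.05 in edgeR and a bar at each median. The members reach from -0.20 to 3.36, the IκB and NF-κB list holds 8 filled points of 11, and the lists of A20 partners and of linear ubiquitin hold none.

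Genes whose log2 CPM followed a member most closely over the 8 libraries were taken from 11106 candidates by Pearson's r, as a description. Since 4 libraries had TNF-α and 4 had not, any gene that TNF-α moved evenly gives a high r, and 297 genes exceeded 0.95 for Tnfaip3. Those nearest Tnfaip3 were Enpp2, Ikbke, Gbp4, Dnah6 and Fmnl3 (r 0.9978 to 0.9995). Enpp2, the secreted enzyme autotaxin, was at 270 CPM on average without and 784 CPM with TNF-α. Nearest Tnip1 were Mapk11, Nfkbia, Casp4, Gbp2 and Ggt7, and nearest Tnip3 were Ifi209, Car8, Clip4, Itgb6 and Rgs5. Tnfaip2 was followed by Mmp13, Stx11, Zbtb7c, Icam1 and Lamb3, of which Icam1, an adhesion molecule for leukocytes, went from 98.8 to 210.1 CPM. Ier3 was followed by Tle6, Map2k1, Pnrc1, Btd and Kmt5c, with log2 fold changes of 0.24 to 0.94, of which those of Btd and Kmt5c did not pass the test (edgeR adjusted p = 0.0598 and 0.109). Gbp2 and Gbp4 have near-identical relatives, so their counts are uncertain.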

How the data were processed

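RNA was measured in 8 libraries of Hepa1-6 cells; paired reads came from bead-selected mRNA, per the labels' protocols. The authors deposited whole-number counts per Ensembl gene from htseq, per the file name, and TPM values by gene symbol. The build is mm9, per the submitters' processing notes; the sources used here state no aligner, annotation, strand setting or program for the TPM values. Of 54446 identifiers 54409 matched GENCODE M21 without their version and 53229 with it. The build behind the counts was not tested. Of the genes, 24472 had 0 counts throughout.

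Counts were fitted with edgeR 4.0.16 in R 4.3.3 (filterByExpr, TMM, robust glmQLFit, 4 group means over 8 libraries, 4 residual degrees of freedom) and tested with glmQLFTest, adjusted over 15613 genes at 0.05. CPM uses the kept-gene total times the TMM factor; log2 CPM a prior count of 2. DESeq2 1.42.0, limma 3.58.1 on log2(TPM + 1) and log2(TPM + 0.1), other scalings and filters, a replicate block and left-out libraries were tried. TPM symbols that occur more than once (95) or became dates (27) were left out. Code was tested on simulated data. Intervals and floors cover counting error or library spread only. That spread is shared by the 4 groups, so SEs and intervals do not follow the pairs compared alone.

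All members are named; of each pathway list, the 4 called genes of smallest p, or the 2 of smallest p, and, per rising member, the 5 genes of highest r; Tnfrsf1a, Il6, Rela and Nfkbib were chosen after seeing their values. The members and lists were chosen with earlier results of these data known.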

Additional observations from a re-analysis of the deposited data

How the results depend on the processing

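Counts of members are given beside those of all genes called in the same fit. They hold calls in either direction, and Tnfaip8 was lower wherever it was called. Members called with TNF-α against control, 5 (633 genes), numbered 0 (1 gene) in a fit of only the groups compared and 3 to 7 (92 to 7971 genes) with 1 library left out. They numbered 8 (3273 of 16245 genes) without TNF-α 16 and control 14 together. With both agents against control, 4 (545 genes), they numbered 7 (2373), 3 to 7 (90 to 3013) and 7 (3703) in these settings. With both against TMAO, 5 (569), they numbered 8 (4775 of 14950), 2 to 7 (71 to 2628) and 8 (4832). With TMAO against control 1 was called, Ier3, without TNF-α 16 and control 14 (48 genes). With 1 library left out, both agents against TNF-α gave 0 to 5 and the interaction 0 to 3; each maximum was without TNF-α 14, where 8068 and 5788 of 16317 genes were called, so those members' shares are near that of all genes. Averaged over both backgrounds 5 to 8 were called (647 to 7444 genes) with 1 library left out, and 8 (5526 genes) without TNF-α 16 and control 14. Cyld turned negative with TNF-α against control on log2(TPM + 1), -0.34, on log2(TPM + 0.1), -0.36, and with a library left out (-0.19 to 0.26), and averaged over backgrounds on the TPM scales (-0.039 and -0.044).

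The library numbers were not taken to pair samples, since the differences between libraries 14 and 16 correlated at -0.42 between control and TNF-α and at -0.05 to 0.00 otherwise. With the replicate number as a block 4 members were called with TNF-α against control, Ier3 having an adjusted p of 0.065 (edgeR), and 342 genes in place of 633; 4 were called with both agents against control, 4 with both against TMAO and 5 on average.

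Depth limits Tnip3 most, with 25 counts in its lowest library.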

Other observations

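The members did not vary together as 1 block. Over the 8 libraries log2 CPM of Tnfaip3 correlated with Tnfaip2, Tnip3 and Tnip1 at 0.99, 0.98 and 0.97 (Pearson, a description over libraries that fall into 4 with and 4 without TNF-α), while Cyld and Tnfaip8 ran opposite to each other, at -0.91. In TNF-α 16 Cyld was the lowest of all libraries on the CPM scale and on the TPM scale, at 71.7 CPM and 14.7 TPM. In the same library 172 of 11362 genes (1.51%) had a ratio of TPM to CPM more than 2-fold away from their other libraries, against 46 to 63 genes in each other library.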
